A study of Mus musculus with 4 samples.

Results

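Keratins were read in FDG-positive cells sorted from the dental pulp of XLacZ4 mice. They are the 47 rows, of 24216 in the authors' deposited table, whose gene name is Krt followed by digits alone. The table was built from 2 molar libraries (titled Molar 1 and Molar 2, from molar pulp) and 2 incisor libraries (titled Incisor 1 and Incisor 2, from incisor pulp). All 4 carry the XLacZ4 strain label, so both tissues share the reporter, and the labels used here give no age, sex or treatment and do not say whether animals were pooled. XLacZ4 is a transgenic reporter line in which beta-galactosidase is active in pericytes and vascular smooth muscle cells, and FDG is a substrate that turns fluorescent when that enzyme cleaves it. The table holds 1 combined FPKM value per tissue (fragments scaled for transcript length and library depth). The values therefore carry no replicate error here, the depth is unknown, and a difference between the teeth cannot be told apart from one in sorting, preparation or sequencing.

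Keratins are the intermediate filament proteins of epithelial cells. A filament is built from paired chains, 1 acidic type I chain with 1 neutral or basic type II chain, so an epithelium normally makes members of both types. The pair used tells the kind of epithelium: Krt5 with Krt14 in the basal layer of stratified epithelia, Krt8 with Krt18 in simple epithelia, Krt1 with Krt10 above the basal layer of the epidermis, and large sets of their own in hair. Tooth enamel is laid down by an epithelium that expresses Krt5 and Krt14, and the mouse incisor keeps that epithelium throughout life, whereas the erupted molar crown has lost it. Pulp mesenchyme and mural cells are not keratin-rich tissues. For this account the 47 genes were divided into 4 basal keratins (Krt5, Krt14, Krt15 and the appendage and wound keratin Krt17), 5 simple-epithelial keratins (Krt7, Krt8, Krt18, Krt19 and Krt20), 19 hair keratins and 19 others.

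The keratins with the highest values are close relatives, and the letters they share bear on how far a read can be assigned to 1 of them. Over words of 32 bases in the longest protein-coding transcript of GENCODE M21, 28.3% of Krt14 recurred in other genes, most of it in Krt16 (17.8%), and 15.0% of Krt17 recurred, most of it in Krt14 (11.3%). The longest identical run of Krt14 and Krt16 within their reading frames had 134 bases, in the stretch that encodes the conserved start of the keratin rod. It is shown in capitals with up to 12 flanking bases on each side, because a read that falls wholly within it matches equally the gene with the highest keratin value and a neighbour near 0 (chromosome 11, mm10, sequence from the GENCODE M21 transcripts, 5′ to 3′).
Krt14: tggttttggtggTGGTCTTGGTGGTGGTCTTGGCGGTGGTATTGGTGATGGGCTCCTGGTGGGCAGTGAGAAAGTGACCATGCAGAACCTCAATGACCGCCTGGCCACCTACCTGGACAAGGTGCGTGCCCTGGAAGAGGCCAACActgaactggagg
Krt16: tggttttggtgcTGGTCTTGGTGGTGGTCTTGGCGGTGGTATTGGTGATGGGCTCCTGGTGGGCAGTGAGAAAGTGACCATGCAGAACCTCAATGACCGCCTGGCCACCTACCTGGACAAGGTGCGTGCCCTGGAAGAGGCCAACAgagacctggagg
The longest run shared by Krt14 and Krt17, the other abundant type I keratin, had 71 bases and lies in the stretch that encodes the conserved end of the rod. It is set out in the same way.
Krt14: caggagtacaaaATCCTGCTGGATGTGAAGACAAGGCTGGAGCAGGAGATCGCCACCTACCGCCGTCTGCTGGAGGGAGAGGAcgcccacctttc
Krt17: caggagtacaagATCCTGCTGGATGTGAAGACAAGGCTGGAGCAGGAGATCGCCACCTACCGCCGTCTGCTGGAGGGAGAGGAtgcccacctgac

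Basal keratins were lower in molar and, with Krt17 counted among them, made up most of the keratin signal of both tissues. Krt14 (chromosome 11, 100203162 to 100207510 on mm10), the type I chain of basal cells, stood at 32.8 FPKM in molar and 545 FPKM in incisor. That is 16.6-fold lower in molar in the authors' deposited table, with a log2 fold change (molar over incisor) of -4.06 and q = 0.000664. Among the 24216 rows Krt14 ranked 2555 in molar and 138 in incisor. Krt17 (chromosome 11, 100256215 to 100261029), a type I keratin of hair follicles, other appendages and wounded epithelium, stood at 19.8 FPKM in molar and 267 FPKM in incisor. It was 13.5-fold lower in molar in the authors' deposited table, with a log2 fold change of -3.75 and q = 0.000664. They were the 2 highest keratins of each tissue. Krt5 (chromosome 15, 101707070 to 101712891), the type II partner of Krt14, stood at 3.05 FPKM in molar and 22.5 FPKM in incisor. It was 7.38-fold lower in molar in the authors' deposited table, with a log2 fold change of -2.88 and q = 0.0164.

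The fourth basal keratin, Krt15, a type I chain of basal cells and of the hair follicle bulge, showed a wider ratio with no call. It stood at 0.0541 FPKM in molar and 3.59 FPKM in incisor, and the authors' deposited table gave it p = 0.206 and q = 0.347. The values of the basal keratins thus all lay on the same side, lower in molar, with 3 of 4 called, where 4.28% of all tested rows were called in that direction. With 1 combined value per tissue the spread of Krt15 between libraries is not shown, and what its p rests on is not given. In bulk RNA, fewer cells of a type and less RNA per cell cannot be told apart.

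Across the family, 30 of the 47 keratins were tested by the authors. Of these, 3 were called lower in molar (q under 0.05), again beside 4.28% of all 18770 tested rows, and 1 was called higher in molar, against 11.9% of all tested rows. The other 26 were not called, and the 17 untested keratins were each under 1 FPKM in both tissues. The median of log2((molar FPKM + 1) / (incisor FPKM + 1)) over the 30 tested keratins was 0.16, beside 0.21 over all tested rows, while their mean was -0.29. Median and mean thus differ in sign, with many keratins near 0 slightly higher in molar and a few abundant ones far lower. The molar FPKM of all rows summed to 1.51 times that of incisor (log2 0.60) and the median log2 fold of rows above 0 in both tissues was 0.22. The called keratins had absolute log2 folds of at least 2.55, beyond either shift.

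**Figure D1:**
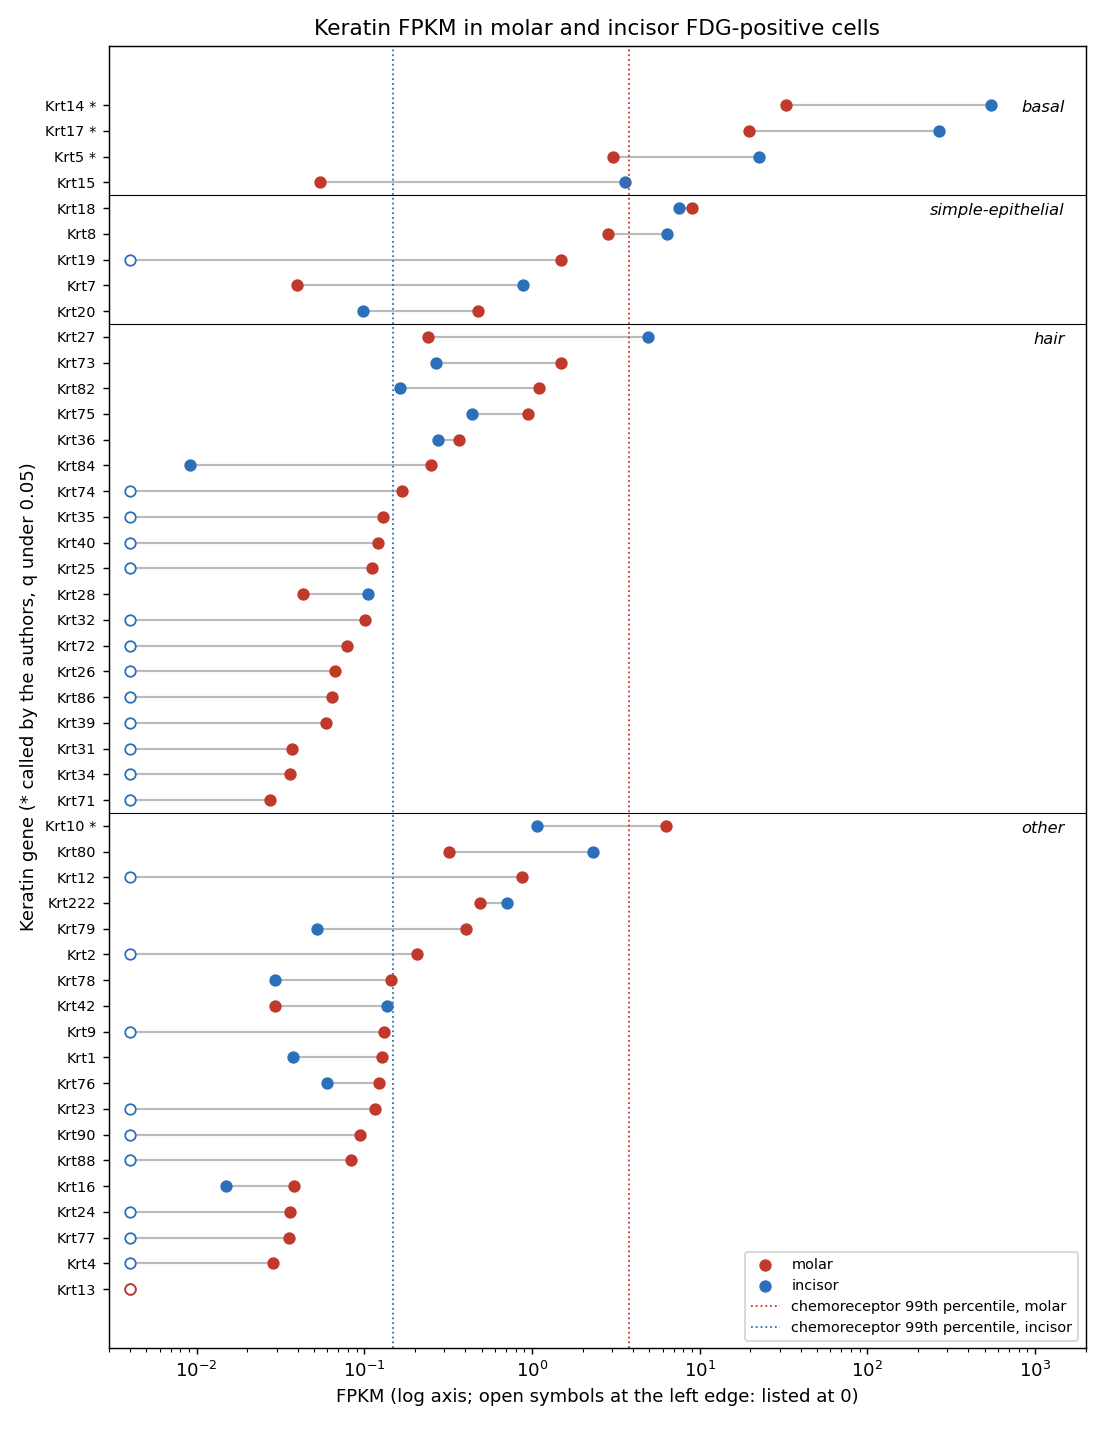
FPKM of each of the 47 keratins in molar (red) and incisor (blue) on a log axis, grouped by class. Open symbols at the left edge are values listed at 0, stars mark the 4 genes called in the authors' deposited table, and dotted lines give the 99th percentile of chemoreceptor genes, 3.78 FPKM in molar and 0.147 FPKM in incisor. Krt14, Krt17 and Krt5 lie far to the right in incisor, Krt10 lies further right in molar, and most hair and other keratins lie under 1 FPKM in both tissues.

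Krt10 was the only keratin called higher in molar. Krt10 (chromosome 11, 99385256 to 99389364), the type I chain made as epidermal cells leave the basal layer, stood at 6.29 FPKM in molar and 1.07 FPKM in incisor. In the authors' deposited table it was 5.88-fold higher in molar, with a log2 fold change of 2.55 and q = 0.0132. Its epidermal partner Krt1 did not accompany it, at 0.128 FPKM in molar and 0.0373 FPKM in incisor (q = 0.536 in the authors' deposited table). Krt2, which follows Krt1 in the outer epidermis, was at 0.207 FPKM in molar and listed at 0 in incisor, again with no call. GENCODE M21 annotates an antisense gene, Gm11940, inside the Krt10 interval, and whether the counting used strand is not given in the sources used here. Only 0.242% of the 32-base words of Krt10 recurred in another gene.

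The 4 promoters below are shown because they belong to keratins with calls in opposite directions, Krt5 and Krt10, and to the uncalled simple pair, Krt8 and Krt18. Each is the 250 bases before the annotated RefSeq start on GRCm38.p6, 5′ to 3′ on the gene's strand. They lie at chr15:101712906-101713155 (Krt5, minus strand), chr11:99389365-99389614 (Krt10, minus strand), chr15:102004343-102004592 (Krt8, minus strand) and chr15:102027966-102028215 (Krt18, plus strand). Capitals mark matches on either strand to any of 5 motifs: the TATA box (letters TATAAA), the CCAAT box (spelled as named), the GC box (letters GGGCGG), the AP-1 motif (letters TGANTCA) and the AP-2 motif (letters GCCNNNGGC).
Krt5: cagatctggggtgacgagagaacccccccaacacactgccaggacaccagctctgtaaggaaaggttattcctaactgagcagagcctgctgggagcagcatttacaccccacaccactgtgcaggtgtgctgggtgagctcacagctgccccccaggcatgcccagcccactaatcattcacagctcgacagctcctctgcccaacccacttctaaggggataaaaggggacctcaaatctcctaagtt
Krt10: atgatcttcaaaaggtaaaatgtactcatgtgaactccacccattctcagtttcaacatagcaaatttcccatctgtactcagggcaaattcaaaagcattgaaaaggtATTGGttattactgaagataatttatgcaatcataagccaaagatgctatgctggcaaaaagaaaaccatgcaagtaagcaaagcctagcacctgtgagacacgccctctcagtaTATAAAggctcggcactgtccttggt
Krt8: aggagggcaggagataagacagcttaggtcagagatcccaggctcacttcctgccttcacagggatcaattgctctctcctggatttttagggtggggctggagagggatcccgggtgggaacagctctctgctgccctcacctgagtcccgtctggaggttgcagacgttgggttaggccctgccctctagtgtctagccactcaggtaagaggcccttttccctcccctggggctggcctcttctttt
Krt18: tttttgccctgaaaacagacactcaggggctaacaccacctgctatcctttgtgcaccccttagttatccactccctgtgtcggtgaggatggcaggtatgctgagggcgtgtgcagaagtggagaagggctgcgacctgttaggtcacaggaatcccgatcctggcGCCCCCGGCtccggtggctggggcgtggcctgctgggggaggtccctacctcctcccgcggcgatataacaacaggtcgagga
Krt10 held TATAAA with its first base 26 bases before the start and 1 CCAAT match on the other strand, Krt18 held 1 GCCNNNGGC, and Krt5 and Krt8 held none of the 5 motifs in these letters. Among the 29 keratins with a RefSeq promoter whose start lay within 50 bases of the edge of the deposited row, 14 held TATAAA, beside 12.4% of all 32851 promoters of this length in the table. Matches to GCCNNNGGC were found in 4 of the 29 (13.7% of all promoters), to GGGCGG in 2 (32.7%), to TGANTCA in 1 (6.75%) and to CCAAT in 11 (33.8%). A match describes the letters and is not a shown binding site.

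Simple-epithelial keratins showed no called difference. The authors' deposited table called none of the 5, beside 16.2% of all tested rows called in either direction, and none had an unadjusted p under 0.05. With 5 genes, the lack of a call does not set the class apart from that share. Krt18, the type I chain of simple epithelia, stood at 9.04 FPKM in molar and 7.48 FPKM in incisor (q = 0.585 in the authors' deposited table). Krt8, its type II partner, stood at 2.85 FPKM in molar and 6.35 FPKM in incisor (q = 0.358). By value Krt18 was 1.21-fold higher and Krt8 2.23-fold lower in molar, smaller folds than those of the called basal keratins (7.38-fold or more). No interval of the difference can be formed from 1 value per tissue. Krt8 shares 31.9% of its 32-base words with other genes, nearly all with a Krt8 pseudogene, and Krt18 shares 10.4%. How reads in these words were assigned is not given in the sources used here, and their effect on the values was not tested. GENCODE M21 also places a noncoding gene, Gm36026, across the start of Krt8. Krt19, a small type I keratin of simple and ductal epithelium, stood at 1.50 FPKM in molar, with 0 listed for incisor (q = 0.252 in the authors' deposited table). Krt7, a type II keratin of ducts and glands, stood at 0.0397 FPKM in molar and 0.880 FPKM in incisor, and Krt20, an intestinal type I keratin, at 0.474 FPKM in molar and 0.0980 FPKM in incisor. Neither was called.

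Most hair keratins had low values in both tissues. The 19 members comprise 10 keratins of the hair cortex and cuticle, 8 of the inner root sheath and Krt75 of the companion layer, and 9 of them were tested. The authors' deposited table called none of these 9, beside 16.2% of all tested rows in either direction, and so few genes do not set the class apart. Of the 9, Krt73 alone had an unadjusted p under 0.05. The class summed to 5.43 FPKM in molar and 6.19 FPKM in incisor, and 16 of the 19 were under 1 FPKM in both. Krt27, a type I chain of the inner root sheath, supplied most of the incisor sum, at 0.239 FPKM in molar and 4.93 FPKM in incisor (p = 0.188 and q = 0.328 in the authors' deposited table). Krt73, a type II keratin of the inner root sheath, leaned the other way, at 1.50 FPKM in molar and 0.269 FPKM in incisor (p = 0.0258 and q = 0.117 in the authors' deposited table). The remaining inner root sheath keratins Krt25, Krt26, Krt28, Krt71, Krt72 and Krt74 were between 0.0275 and 0.167 FPKM in molar, and at most 0.105 FPKM in incisor. Among cortex and cuticle keratins the highest in molar was Krt82, of the hair cuticle, at 1.09 FPKM in molar and 0.164 FPKM in incisor (q = 0.263 in the authors' deposited table). Krt75, whose variants in people have been linked to tooth decay, stood at 0.944 FPKM in molar and 0.435 FPKM in incisor, with q = 0.318. Krt86 and Krt88 share 1 interval with a joined row of Krt81, Krt83, Krt85 and Krt87 that falls outside the family rule. That row stood at 0.168 FPKM in molar, with 0 listed for incisor and no call.

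Of the other keratins, besides Krt10, the single member at 1 FPKM or more was Krt80, a type II keratin of many epithelia. It stood at 0.319 FPKM in molar and 2.29 FPKM in incisor, with no call (q = 0.404 in the authors' deposited table). Krt12, the type I keratin of the cornea, was at 0.866 FPKM in molar and listed at 0 in incisor. Keratins of the oral lining were close to 0: Krt4 was at 0.0284 FPKM in molar and listed at 0 in incisor, Krt76 of the palate was at 0.123 FPKM in molar and 0.0595 FPKM in incisor, and Krt13 was listed at 0 in both. Krt13 was the only keratin at 0 in both tissues. The lettered genes Krt6a, Krt6b, Krt33a and Krt33b do not match the naming rule, and their values reached at most 0.138 FPKM in molar and 0.00924 FPKM in incisor.

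In molar, 46 of the 47 keratins had a value above 0, against 24 in incisor. The 35 keratins under 1 FPKM in both tissues were higher in molar in 30 cases and higher in incisor in 4. Of the 18 of them that were tested, 15 were higher in molar (83.3%), beside 77.5% of all 5572 tested rows under that level, so the lean was close to that of other low rows. Receptor genes for smell, pheromones and taste, a set picked with the values known, leaned the same way: 82.1% of the 1486 were above 0 in molar and 3.50% in incisor. Their 99th percentile was 3.78 FPKM in molar and 0.147 FPKM in incisor. Keratins above that level were 4 in molar (Krt14, Krt17, Krt18 and Krt10) and 15 in incisor. Krt10 in molar exceeded the percentile but not the highest receptor, 7.94 FPKM. In incisor the highest receptor was at 4.61 FPKM. Krt15, Krt80, Krt10 and Krt7 were among the incisor keratins above the percentile but below that receptor. The molar values of Krt5, Krt8, Krt19, Krt73, Krt82 and Krt75 lay within the receptor range, and the part of such low signal in them was not tested.

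The make-up of the keratin sum differed between the tissues in a way that library scaling cannot move. All 47 keratins summed to 84.5 FPKM in molar and 863 FPKM in incisor, 10.2-fold lower in molar. Basal keratins held 65.8% of the sum in molar and 97.1% in incisor. Krt17 alone held 23.4% in molar and 30.9% in incisor, so the basal share depends on the class given to Krt17. Simple-epithelial keratins held 16.4% in molar and 1.72% in incisor, other keratins 11.3% in molar and 0.510% in incisor, and hair keratins 6.42% in molar and 0.717% in incisor. At or under the chemoreceptor 99th percentile were 43 of the 47 keratins in molar (3.78 FPKM) and 32 in incisor (0.147 FPKM). The part of such low signal in the shares was not tested. In absolute terms the simple class summed to 13.9 FPKM in molar and 14.8 FPKM in incisor and the basal class to 55.6 FPKM in molar and 838 FPKM in incisor. Thus the larger share of simple keratins in molar went with a smaller basal sum and not with a larger simple sum.

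**Figure D2:**
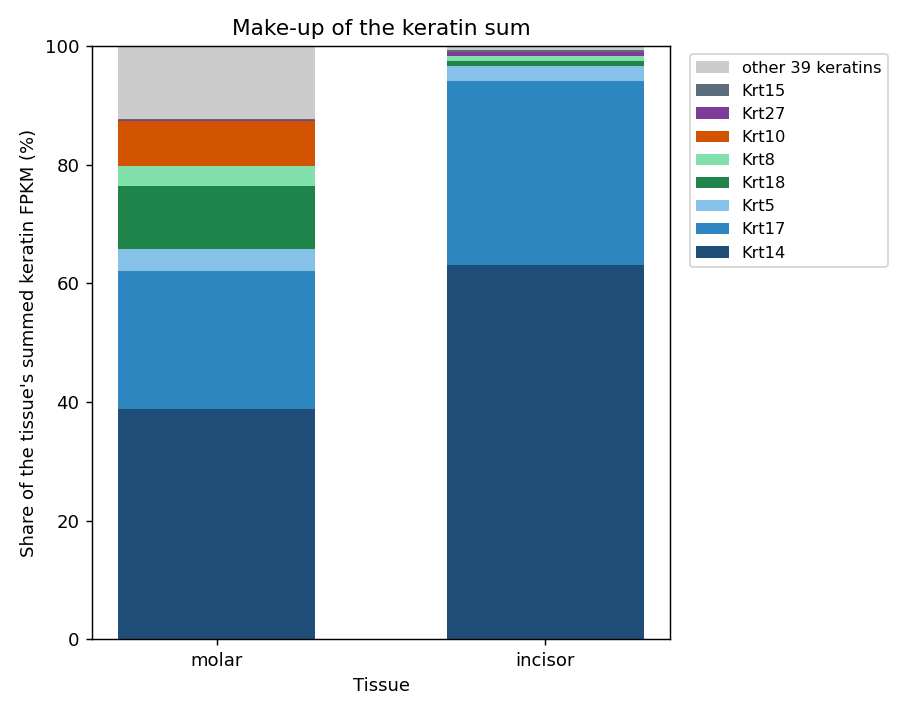
Share (%) of each tissue's summed keratin FPKM held by 8 named keratins and by the other 39 together, molar on the left and incisor on the right. Krt14 holds 38.7% in molar and 63.1% in incisor, Krt17 holds 23.4% in molar and 30.9% in incisor, and Krt18 and Krt10 are visible as bands of 10.7% and 7.44% in molar.

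Type I chains outweighed type II chains in both tissues, and more so in incisor. Summed type I keratins came to 72.9 FPKM in molar and 830 FPKM in incisor, and summed type II keratins to 11.6 FPKM in molar and 33.1 FPKM in incisor. The ratio of type I to type II was 6.27 in molar and 25.1 in incisor. For the basal pair alone, Krt14 stood at 10.7 times Krt5 in molar and 24.2 times in incisor. The simple pair was nearer to balance, with Krt18 at 3.17 times Krt8 in molar and 1.18 times in incisor. The 2 abundant type I keratins kept a similar proportion, with Krt14 at 1.66 times Krt17 in molar and 2.04 times in incisor. These are ratios of FPKM, which is per length, and carry no error. In molar the highest type II keratin, Krt5 at 3.05 FPKM, lay under the chemoreceptor 99th percentile of 3.78 FPKM. In incisor Krt5 (22.5 FPKM) and Krt8 (6.35 FPKM) lay above that of 0.147 FPKM. The part of such low signal in the molar ratios, and so in their gap to the incisor ratios, was not tested.

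The family lies in 2 clusters, and neighbours within them were far apart in level. All 25 keratins of chromosome 11 are type I and span 1036774 bases, while chromosome 15 holds the 21 type II keratins and the type I gene Krt18 over 682456 bases. Krt14, Krt16 and Krt17 follow each other on chromosome 11, with 38580 bases between Krt14 and Krt16 and 7312 bases between Krt16 and Krt17. Krt16, a type I keratin of wounded and thickened epidermis, stood at 0.0382 FPKM in molar and 0.0150 FPKM in incisor. The gene between the 2 abundant keratins was thus near 0 in both tissues, although 51.0% of its 32-base words recur in other genes, Krt14 among them. Krt42, 1852 bases beyond Krt17, was at 0.0294 FPKM in molar and 0.136 FPKM in incisor. Krt15 and Krt19, which lie 4861 bases apart, had opposite signs, with no call for either. The nearest members to Krt5 on chromosome 15, Krt75 before it and Krt71 after it, were under 1 FPKM in both tissues, as were the lettered genes Krt6a and Krt6b between Krt75 and Krt5.

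**Figure D3:**
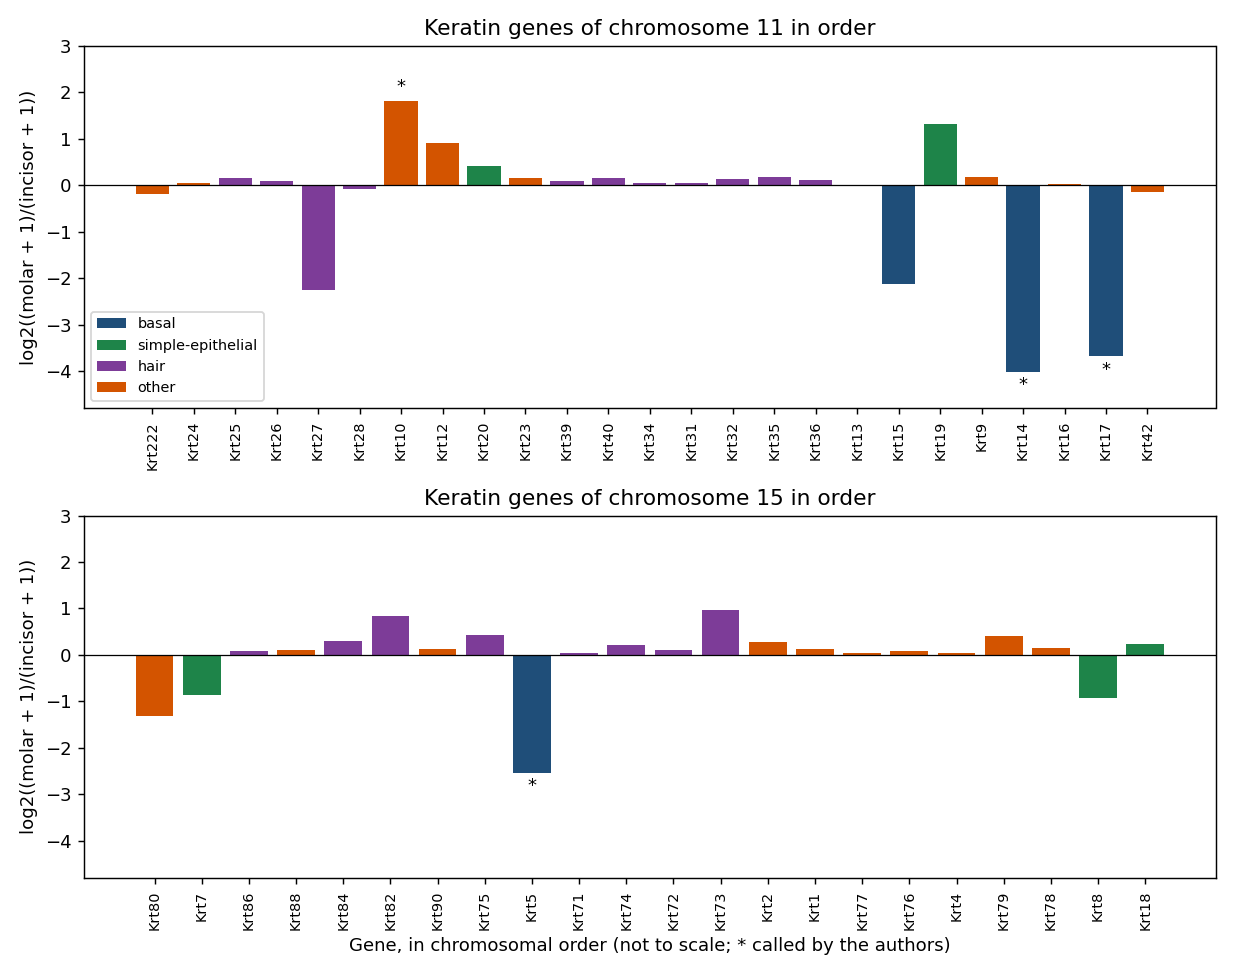
Difference log2((molar FPKM + 1) / (incisor FPKM + 1)) of each keratin in chromosomal order, 25 genes of chromosome 11 above and 22 of chromosome 15 below, coloured by class, with stars for genes called in the authors' deposited table. Bars below 0 mean lower in molar. The 3 longest bars down are Krt14 (-4.02), Krt17 (-3.69) and Krt5 (-2.54), separated by genes near 0, and the longest bar up is Krt10 (1.82).

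Genes that attach keratin filaments to the cell border leaned toward incisor with few calls. Of 15 tested desmosome and plakin genes, 1 was called lower in molar (6.67%, beside 4.28% of all tested rows) and none higher in molar (1 at an unadjusted p under 0.05), with a list median of -0.54 beside 0.21 for all tested rows. The called gene was Perp, a membrane protein of desmosomes, at 9.44 FPKM in molar and 38.8 FPKM in incisor (q = 0.00508 in the authors' deposited table). The uncalled genes with the highest means were Pkp4 (9.99 FPKM in molar, 11.8 FPKM in incisor), the plakoglobin gene Jup (4.09 FPKM in molar, 5.53 FPKM in incisor) and the desmosomal cadherin gene Dsc3 (0.272 FPKM in molar, 4.25 FPKM in incisor). Desmoplakin, encoded by Dsp, which ties keratin to desmosomes, stood at 0.143 FPKM in molar and 3.31 FPKM in incisor with no call (q = 0.354), and is named here after its values were seen.

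Hemidesmosome genes, which anchor basal keratins to the basement membrane, were all lower in molar by value, 8 of 8, beside 7255 of all 18770 tested rows. The authors' deposited table called none, beside 4.28% of all tested rows called lower in molar. An unadjusted p under 0.05 was given to 3 of the 8, beside 1700 of the 18770 in that direction. The list median was -0.94, beside 0.21 for all tested rows. Cd151 stood at 39.3 FPKM in molar and 56.9 FPKM in incisor, and the plakin gene Plec at 7.81 FPKM in molar and 13.3 FPKM in incisor. Lamb3, which encodes a laminin chain of the basement membrane, stood at 1.22 FPKM in molar and 11.5 FPKM in incisor (q = 0.113 in the authors' deposited table). These are the 3 uncalled genes with the highest means, and Lamb3 is 1 of the 3 with an unadjusted p under 0.05, beside Lama3 and Dst.

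Where markers of epithelium were called, their direction was that of the basal keratins. Of 20 epithelial identity genes, 3 were called lower in molar (15.0%, beside 4.28% of all tested rows) and none higher in molar (none at an unadjusted p under 0.05), with a list median of -0.78. Sfn, the stratifin of stratified epithelium, stood at 1.64 FPKM in molar and 51.5 FPKM in incisor, the E-cadherin gene Cdh1 at 1.16 FPKM in molar and 12.4 FPKM in incisor, and Cldn1, a claudin of tight junctions, at 0.494 FPKM in molar and 11.7 FPKM in incisor. The uncalled members with the highest means were the protease inhibitor gene Spint2 (20.6 FPKM in molar, 13.3 FPKM in incisor), Trp63, the master factor of stratified epithelium (1.30 FPKM in molar, 11.1 FPKM in incisor), and Epcam (1.08 FPKM in molar, 6.25 FPKM in incisor). Summed over the list, the epithelial genes came to 33.5 FPKM in molar and 125 FPKM in incisor, and no member was listed at 0 in either tissue. Of 7 enamel genes, 4 were called lower in molar (57.1%, beside the same 4.28%): Amelx, Ambn, Enam and Mmp20. Amelx, the amelogenin gene, stood at 1937 FPKM in molar and 20642 FPKM in incisor. The uncalled Odam (4.31 FPKM in molar, 0.0987 FPKM in incisor), Klk4 and Amtn, genes of later enamel stages, did not share that direction by value. The part of epithelial cells in the keratin values was not tested.

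Listed genes of cornified layers were low, at most 2.53 FPKM in molar and 1.96 FPKM in incisor. Of 10 tested members of that list, 1 was called higher in molar (10.0%, beside 11.9% of all tested rows) and none lower in molar (none at an unadjusted p under 0.05), with a list median of 0.28. The called gene was the skin protease gene Klk7, at 1.57 FPKM in molar and listed at 0 in incisor (q = 0.000664 in the authors' deposited table), a value within the molar range of chemoreceptor genes. Lce1a1 was at 2.53 FPKM in molar and listed at 0 in incisor, the transglutaminase gene Tgm1 at 1.60 FPKM in molar and 1.96 FPKM in incisor, and Tchh at 0.658 FPKM in molar and 0.328 FPKM in incisor, none of them called. Lor, the loricrin gene, was at 0.125 FPKM in molar and listed at 0 in incisor. The keratin-associated protein genes, which fill the hair shaft, reached 1.57 FPKM in molar and 1.38 FPKM in incisor at most over 53 rows. Of the 28 tested, 2 (7.14%) were called in the authors' deposited table, both lower in molar and listed at 0 there, beside 4.28% of all tested rows called in that direction. They were Krtap6-2 (1.38 FPKM in incisor) and Krtap5-1 (0.583 FPKM in incisor).

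Among other intermediate filament genes 2 of 15 tested were called, both higher in molar (13.3%, beside 11.9% of all tested rows). Vim, the vimentin of mesenchymal cells, stood at 1190 FPKM in molar and 142 FPKM in incisor, and Des, the desmin of muscle, at 3.17 FPKM in molar and 0.155 FPKM in incisor, both called higher in molar (q = 0.000664 in the authors' deposited table). The other 13 were not called at q under 0.05, including the lamin gene Lmna (73.4 FPKM in molar, 179 FPKM in incisor, q = 0.0503), Nes (7.11 FPKM in molar, 6.42 FPKM in incisor) and Lmnb2 (2.41 FPKM in molar, 4.65 FPKM in incisor). The list median was 0.12. Krt14 stood at 0.0275 times Vim in molar and 3.83 times Vim in incisor, so vimentin exceeded the leading keratin in molar and the order was the reverse in incisor.

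**Figure D4:**
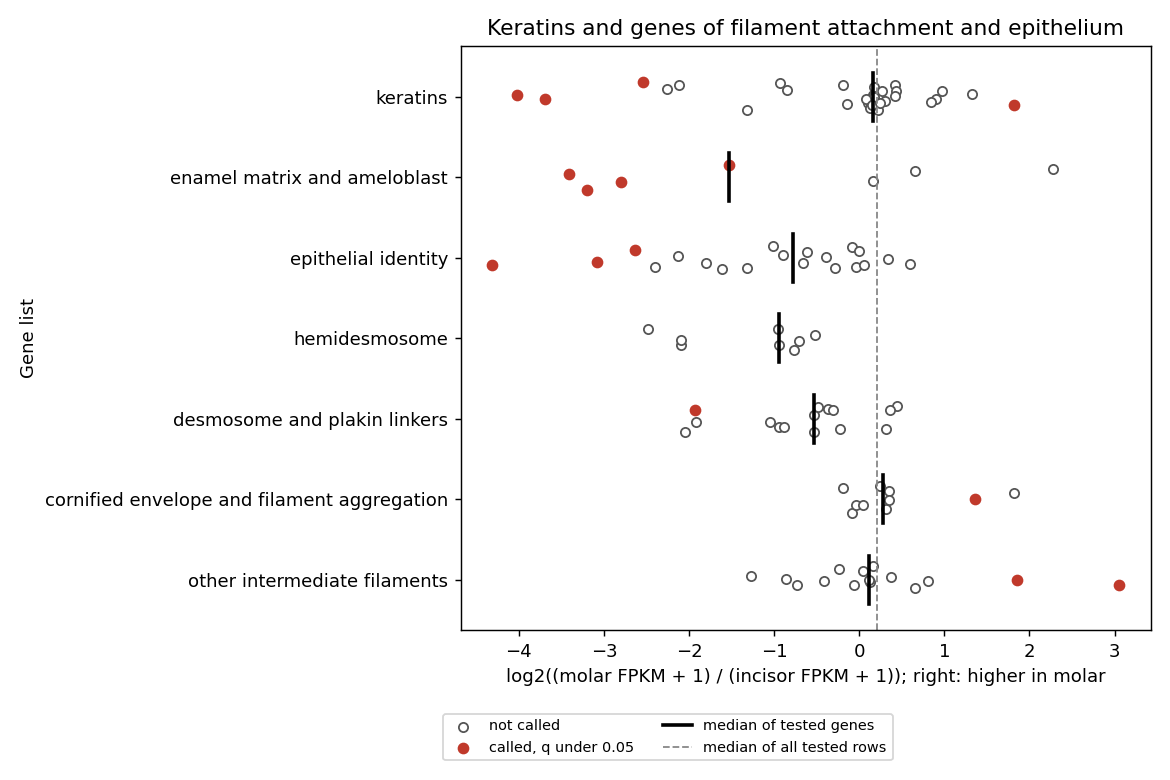
Difference log2((molar FPKM + 1) / (incisor FPKM + 1)) of the tested genes of the keratin family and of 6 other lists, 1 row per list. Filled red points are genes with q under 0.05 in the authors' deposited table, and open points are not called at that threshold. Black bars are list medians and the dashed line is the median of all tested rows, 0.21. The called keratins lie at both ends of their row, the epithelial and enamel lists have their calls on the left, and the filament list has its calls, Vim and Des, on the right.

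Genes of the cells the reporter is meant to mark were also read in the sorted fractions. Of 8 mural genes, all had at least 2.40 FPKM in both tissues. In molar, Abcc9 (2.40 FPKM) and Cspg4 (2.86 FPKM) lay under the chemoreceptor 99th percentile of 3.78 FPKM. The authors' deposited table called 1 mural gene higher in molar (12.5%, beside 11.9% of all tested rows) and 2 lower in molar (25.0%, beside 4.28%). Rgs5, a pericyte gene, stood at 127 FPKM in molar and 537 FPKM in incisor, a value close to that of Krt14 in incisor, and Pdgfrb, a growth factor receptor gene of mural cells, at 12.6 FPKM in molar and 30.3 FPKM in incisor. Kcnj8, which encodes a potassium channel of pericytes, went the other way, at 108 FPKM in molar and 16.0 FPKM in incisor. All 5 endothelial markers (Egfl7, Emcn, Pecam1, Cdh5 and Kdr) were called higher in molar, beside 11.9% of all tested rows. They summed to 220 FPKM in molar and 10.2 FPKM in incisor. Of 5 macrophage markers 1 was called, higher in molar (20.0%, beside the same 11.9%), too few genes to set the list apart from that share. It was C1qa, at 757 FPKM in molar and 255 FPKM in incisor. The macrophage list summed to 6439 FPKM in molar and 4087 FPKM in incisor. The part of these cells in the keratin values was not tested.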

How the data were processed

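RNA from FDG-positive pulp cells was sequenced, 2 libraries per tissue. Tools named without role or order in the submitters' processing notes are HISAT2, edgeR and Trim Galore, with mm10 as the build. The authors deposited 1 table in which the libraries of a tissue are already combined. Per the file headers it holds, beside an FPKM value for each tissue, the log2 fold change, the signed score of the test, its p-value and the q-value. The layout is that of a Cuffdiff gene table, a tool no label names, and no source used here gives the annotation, the library scaling or the use of strand. For every keratin above 0 in both tissues the deposited log2 fold change equalled log2 of molar over incisor FPKM to within 6.34e-06.

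The deposited q values, adjusted by the authors over the 18770 tested rows, were used as they stand with a threshold of 0.05, since no counts are given and no model could be refitted. The labels do not tell whether 2 libraries of the same tissue are separate animals, so the spread between these libraries may be technical. How far the p-values rest on that spread is not given in the sources used here, and depth and its precision are unknown. The description labels link the table's 2 conditions to the tissues. Medians used a pseudocount of 1 FPKM, which understates differences of low genes. Start positions were moved by 1 base to be 1-based. Words of 32 bases and identical runs came from GENCODE M21 transcripts and promoters from RefSeq GRCm38.p6, in which 35 of the 47 keratins had an entry. Python 3.11.15 with pandas 2.3.3 and numpy 2.4.6 was used, and the adjustment and count steps were tested on simulated data. Keratins at 1 FPKM or more in either tissue or with a call were named, with the other members by range and a few in full. From other lists the called genes and, outside the cell type markers, up to 3 uncalled genes by mean FPKM were named, and 1 gene of the hemidesmosome list is not reported here. The members and lists were chosen with earlier results of these data known.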

Additional observations from a re-analysis of the deposited data

How the results depend on the processing

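The keratin calls, their median, the class sums and type ratios and the calls of the other lists, 22 results in all, were recomputed under other settings, and other values were not. No paired analysis was possible because the deposited table holds 1 combined value per tissue, and for the same reason leaving out a replicate was not run. Of 51 values under an alternative, 41 kept their direction and stayed within 1.5 times of the reported ratio or count or, for medians, within 0.58 of it on the log2 scale. At a q threshold of 0.01 no keratin was called higher in molar (0 in place of 1, as Krt10 has q = 0.0132) and 2 in place of 3 were called lower in molar. The median over tested keratins was 0.94 with a pseudocount of 0.1 and turned to -1.13 over the keratins at 1 FPKM or more, a filter that drops the genes near 0. With FPKM scaled to equal totals, the molar over incisor ratio of sums was 0.0439 for basal keratins (0.0664 as deposited), 0.621 for simple (0.939), 0.581 for hair (0.877), 1.44 for other (2.17) and 0.0648 for all keratins (0.0979). With Krt17 placed among the other keratins, that class turned to 0.108. With the authors' own mark of significance, which reached q = 0.0600 and for the other lists was added after seeing the data, 1 of the other filament genes, Lmna, was also called lower in molar. The table gives no depth, so whether low keratins were detectable in incisor cannot be read from a listed 0.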
